A study of Mus musculus with 12 samples.

Results

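The comparison described here is that of testes labelled lncRNA5251 overexpression (OV) with testes from the control of the other lentiviral vector (3NC), 3 libraries against 3. Its members are all genes with 10 or more estimated reads in 3 or more of these 6 libraries, which left 15972 of the 20788 genes of the table. The question it addresses is which differences of the overexpression lineage remain when the control of its own vector, 5NC, is not the reference.

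The series holds 12 RNA-seq libraries from testes of F1 males aged 8 weeks, labelled strain IRC mouse, in 4 groups of 3. The methods describe these mice as sons of males whose testes were injected with lentivirus at 4 weeks of age, whereas the design text of the series has the virus given to the F1 testes. The OV group descended from virus that carries lncRNA5251, a long non-coding RNA, in the LV5 backbone, and 5NC from empty LV5. The 3NC group descended from LV3 virus with a control hairpin, whose 19 bases match 0 genes in GENCODE on either strand, and the lncRNA5251 knockdown group (KD) from LV3 virus with hairpins against lncRNA5251. The vector backbone therefore differs between OV and 3NC together with lncRNA5251, and these cannot be told apart in this comparison alone. Per the methods the injected males were mated with normal ICR females, so the X chromosome of each son came from an uninjected mother. The labels name no parents or litters, so differences between families cannot be told apart from those between groups either. No row of the table carries lncRNA5251, so the overexpression itself was not checked here. Nothing in the labels says that the libraries of 1 group are from different animals, and the p-values therefore rest on a spread between libraries that may be technical.

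The 6 libraries held between 12719699 and 15511362 estimated reads, with OV replicate 3 the shallowest. All 25 gene lists used here, which cover germ cells, somatic cells of the testis, immune cells and the adjoining epididymis, are summarised after the single genes. One control library stood apart before any test. Ptprc, the leukocyte antigen CD45, reached 95.0 in 3NC replicate 2, against 2.80 to 3.77 in the other 5 libraries, in CPM (reads scaled to a common library size with TMM factors). Every list of immune genes moved with that library, and such results are given with and without it.

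Spermatids express several families of genes that occur in many copies on the X and Y chromosomes. Slx is an X-linked family whose proteins act in round spermatids against those of the Y-linked family Sly, and the balance of both families sets how strongly sex-linked genes are expressed after meiosis. The copies of Slx are nearly identical in sequence, so short reads from one copy can fit another. In bulk testis, fewer cells of a type and less RNA per cell cannot be told apart.

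At an adjusted p under 0.05, 4 genes of 15972 (0.025%) differed between OV and 3NC by edgeR's quasi-likelihood test with Benjamini-Hochberg adjustment, 2 higher and 2 lower. Gm6121 and Gm14525 fell, and Gm1993 rose. All 3 lie on the X chromosome and are close copies of Slx. The remaining gene, Ccl28, which encodes a chemokine of mucosal epithelia, was higher. Without adjustment, p was under 0.05 in 666 genes (4.17%), 249 higher and 417 lower. The median log2 fold change over all 15972 genes was -0.02, and the gene next in order after the called 4 had an adjusted p of 0.105. DESeq2 called 28 genes on the same counts, with the 4 among them. Leaving out 1 library gave between 2 calls (without OV replicate 2) and 7 calls (without 3NC replicate 3).

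The coding sequences of the 3 called copies are shown because their likeness sets how far their reads can be told apart. They come from GENCODE transcripts of build GRCm38 (mm10), each 636 bases long, on the minus strand. The first 180 coding bases are printed 5′ to 3′, and capitals mark bases that differ from Gm6121.
Gm6121: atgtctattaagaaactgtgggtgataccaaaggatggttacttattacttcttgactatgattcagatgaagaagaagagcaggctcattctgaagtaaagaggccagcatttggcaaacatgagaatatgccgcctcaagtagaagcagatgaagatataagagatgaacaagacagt
Gm14525: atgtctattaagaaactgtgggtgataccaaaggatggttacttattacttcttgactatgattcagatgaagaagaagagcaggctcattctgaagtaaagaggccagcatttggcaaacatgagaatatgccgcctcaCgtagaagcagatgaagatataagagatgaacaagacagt
Gm1993: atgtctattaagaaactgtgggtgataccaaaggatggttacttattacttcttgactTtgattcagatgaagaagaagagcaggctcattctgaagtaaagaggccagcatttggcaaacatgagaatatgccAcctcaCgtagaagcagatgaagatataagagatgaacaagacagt

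Over all 636 coding bases, Gm6121 and Gm14525 differed at 3 positions (99.53% identical). Gm1993 differed from Gm6121 at 12 and from Gm14525 at 11 positions. Slx itself had 97.96% to 98.58% of its coding bases in common with the 3. Within the printed stretch Gm14525 carries 1 changed base and Gm1993 carries 3.

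The stretches before the start sites are shown for the same reason, since copies that moved in opposite directions have nearly the same letters there. The 250 bases come from RefSeq's GRCm38.p6 gene starts, at chrX:26935670-26935919 for Gm6121, chrX:26702639-26702888 for Gm14525 and chrX:25570450-25570699 for Gm1993, all on the minus strand. They are printed 5′ to 3′, and capitals mark bases substituted or inserted relative to Gm6121. The annotated starts of the copies do not lie at the same base of the shared sequence, so the windows are offset from each other.
Gm6121: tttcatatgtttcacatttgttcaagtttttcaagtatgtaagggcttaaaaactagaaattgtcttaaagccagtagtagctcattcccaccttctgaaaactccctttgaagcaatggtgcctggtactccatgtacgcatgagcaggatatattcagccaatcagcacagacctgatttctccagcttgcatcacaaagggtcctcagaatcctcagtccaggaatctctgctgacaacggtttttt
Gm14525: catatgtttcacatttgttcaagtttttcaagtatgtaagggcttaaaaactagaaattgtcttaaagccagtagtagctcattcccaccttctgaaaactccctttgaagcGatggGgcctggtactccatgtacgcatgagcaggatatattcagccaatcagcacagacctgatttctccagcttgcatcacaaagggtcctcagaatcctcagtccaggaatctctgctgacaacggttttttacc
Gm1993: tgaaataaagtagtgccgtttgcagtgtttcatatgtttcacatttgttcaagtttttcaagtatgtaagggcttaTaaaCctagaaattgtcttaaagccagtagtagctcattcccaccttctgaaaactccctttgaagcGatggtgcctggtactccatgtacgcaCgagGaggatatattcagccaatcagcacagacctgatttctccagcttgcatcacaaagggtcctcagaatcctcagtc

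Where the promoter windows of 300 bases could be aligned, Gm6121 and Gm14525 were 98.99% identical, Gm6121 and Gm1993 98.16%, and Gm14525 and Gm1993 97.77%. No motif was searched in these windows.

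Gm6121 (X, 26912743 to 26935669) was at 1.77, 1.26 and 1.19 CPM in OV and at 12.3, 16.2 and 23.3 in 3NC. The groups did not overlap, and the highest OV library lay far under the lowest 3NC library. The difference was -3.60 on the log2 scale (SE 0.29), or 12.1-fold lower, with an adjusted p of 0.000794. Gm14525 (X, 26672780 to 26702638) gave 2.89, 3.33 and 3.88 CPM in OV against 13.8, 14.3 and 21.8 in 3NC. Its log2 fold change was -2.30 (SE 0.25, adjusted p 0.00691 by edgeR), and its call was lost without OV replicate 2 (adjusted p 0.0900) and in a fit of only the 6 libraries compared (0.0505). Gm1993 (X, 25548501 to 25570449) went the other way, with 16.5, 12.98 and 15.2 CPM in OV and 1.39, 1.25 and 2.63 in 3NC. Its log2 fold change was 3.08 (SE 0.28), or 8.47-fold higher, with an adjusted p of 0.00144 by edgeR.

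The KD and 5NC libraries show how these copies behaved outside the compared groups. In 5NC, Gm6121 was at 13.4 to 16.2 CPM, Gm14525 at 10.7 to 17.3 and Gm1993 at 1.27 to 1.498, close to the 3NC levels. In KD, Gm6121 was at 11.8 to 19.3 CPM and Gm14525 at 13.8 to 19.1. Gm1993 was at 4.06 to 6.08 CPM in KD, between the controls and OV.

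**Figure D1:**
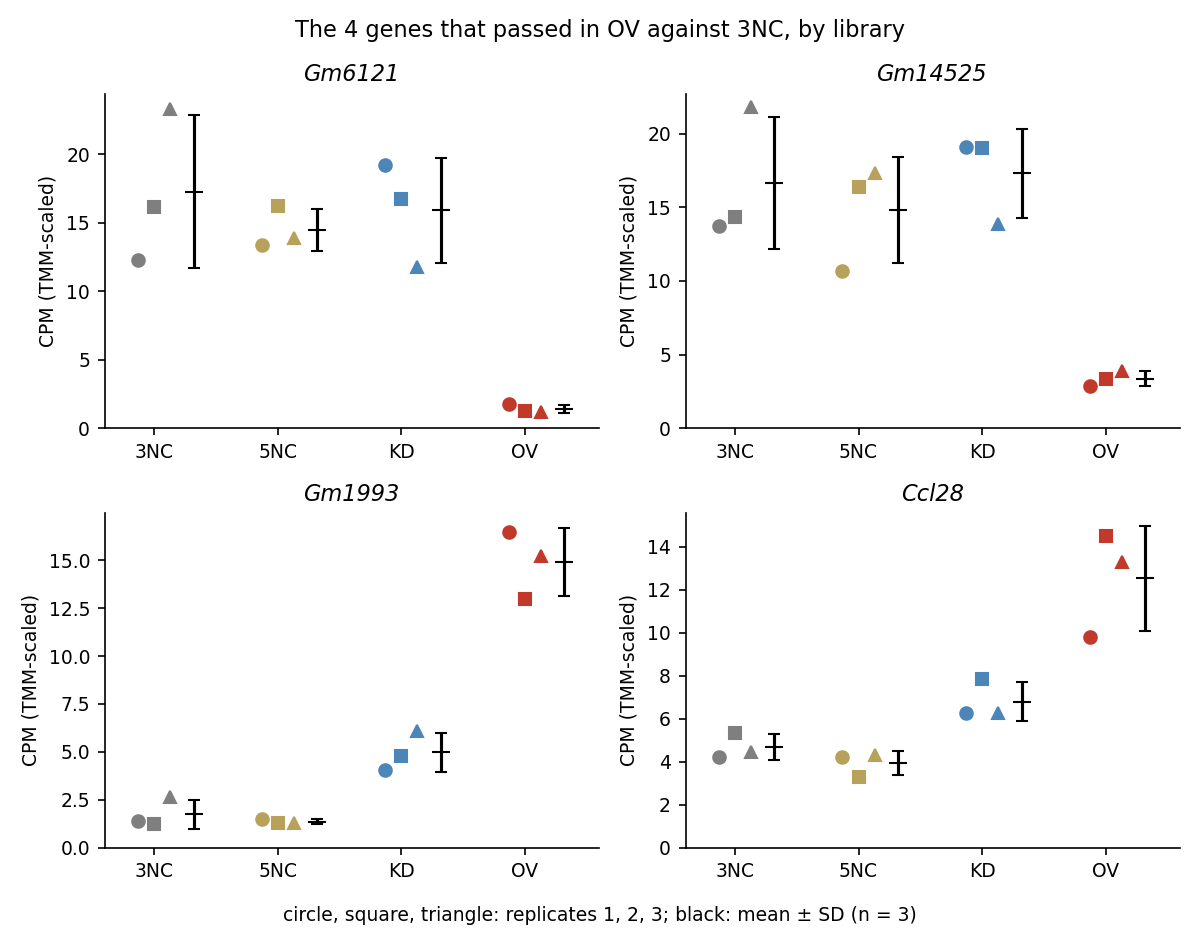
CPM of the 4 called genes in each library of the 4 groups, with linear axes from 0; circles, squares and triangles are replicates 1, 2 and 3, and black marks give the mean ± SD (n = 3). In OV, Gm6121 and Gm14525 lie under every library of the other groups, and Gm1993 (12.98 to 16.5 CPM) and Ccl28 (9.79 to 14.5 CPM) lie above them.

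Because reads may be shared among copies, all genes related to the 3 were collected. In GENCODE, 46 genes shared at least 100 stretches of 50 bases with 1 of the 3, and 22 of them have a row in the table, all on X. Of these, 20 passed the filter on reads and 2 did not. Estimated counts with fractions occurred in all 22, which whole reads assigned to 1 gene would not give. Of the 50-base stretches of Gm6121, 100% also occurred in other genes of the 46, so none was its own. The share was 98.58% for Gm14525 and 76.06% for Gm1993. Besides the 3 called copies, 17 were tested and not called, and in 16 of these the 2 groups overlapped. The exception was Slx itself, at 0.0657, 0.200 and 0.396 CPM in OV and 0.661, 1.31 and 1.96 in 3NC (log2 fold change -2.57, SE 0.52, adjusted p 0.463 by edgeR). It had 9.56 estimated reads over the 3 OV libraries and 60.06 in 3NC, so it was kept through 3NC alone and its separation is partly fixed by the filter (3.17% of all genes had every OV library below 3NC). Over the 20 kept copies the fitted change was positive in 8 and negative in 12.

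The copies differed in how steady they were from library to library. Some were steady. Gm5935 was at 11.8 to 14.3 CPM in OV and 10.7 to 16.0 in 3NC, and Gm2012 was at 19.8 to 22.6 and 18.8 to 34.7. Others swung between replicates of 1 group. Gm10058 was at 115, 65.2 and 0 CPM in OV and at 1.59, 28.3 and 126 in 3NC. Gm10147 was at 0, 51.0 and 71.3 CPM in OV and at 79.5, 28.9 and 0 in 3NC. Among the 22 copies, 12 were at 0 in a library or varied over 10-fold across the 6 libraries, and 4 had a library at 0 reads and another above 100. The copies named here were picked with their values known.

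Summed over all 22 copies, the libraries of OV and 3NC overlapped. The sum was 386, 359 and 398 CPM in OV (381.2 ± 20.0, SD, n = 3) and 325, 348 and 555 in 3NC (409 ± 126), with p = 1 in a two-sided exact permutation test, in which 3 against 3 libraries cannot go below 0.1. In 5NC the sum was 293 to 363 CPM. With the copies summed into 1 row of the fit, a step chosen after the data were examined, the row changed by -0.10 on the log2 scale (SE 0.17, adjusted p 0.934 by edgeR). In that fit no gene of 15953 passed, with 663 at an unadjusted p under 0.05, and Ccl28 had an adjusted p of 0.173. The fit had no separate row for the 3 called copies, so it could not call them. These copies summed to 35.7 CPM in 3NC, where the family sum had an SD of 126 CPM. The family sum therefore cannot show whether single copies differed.

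The 3 called copies were chosen by their difference between these same libraries, so their sum and shares are a description. Their summed CPM was 21.2, 17.6 and 20.3 in OV and 27.4, 31.8 and 47.8 in 3NC, with no overlap. Gm1993 made up 75.6% ± 2.11 (SD, n = 3) of it in OV and 4.83% ± 0.82 in 3NC. The share was 3.74% to 5.87% in 5NC and 9.57% to 19.2% in KD. The 3 copies together were 5.15% of the summed family in OV and 8.73% in 3NC. The part of read assignment in these shares was not tested.

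**Figure D2:**
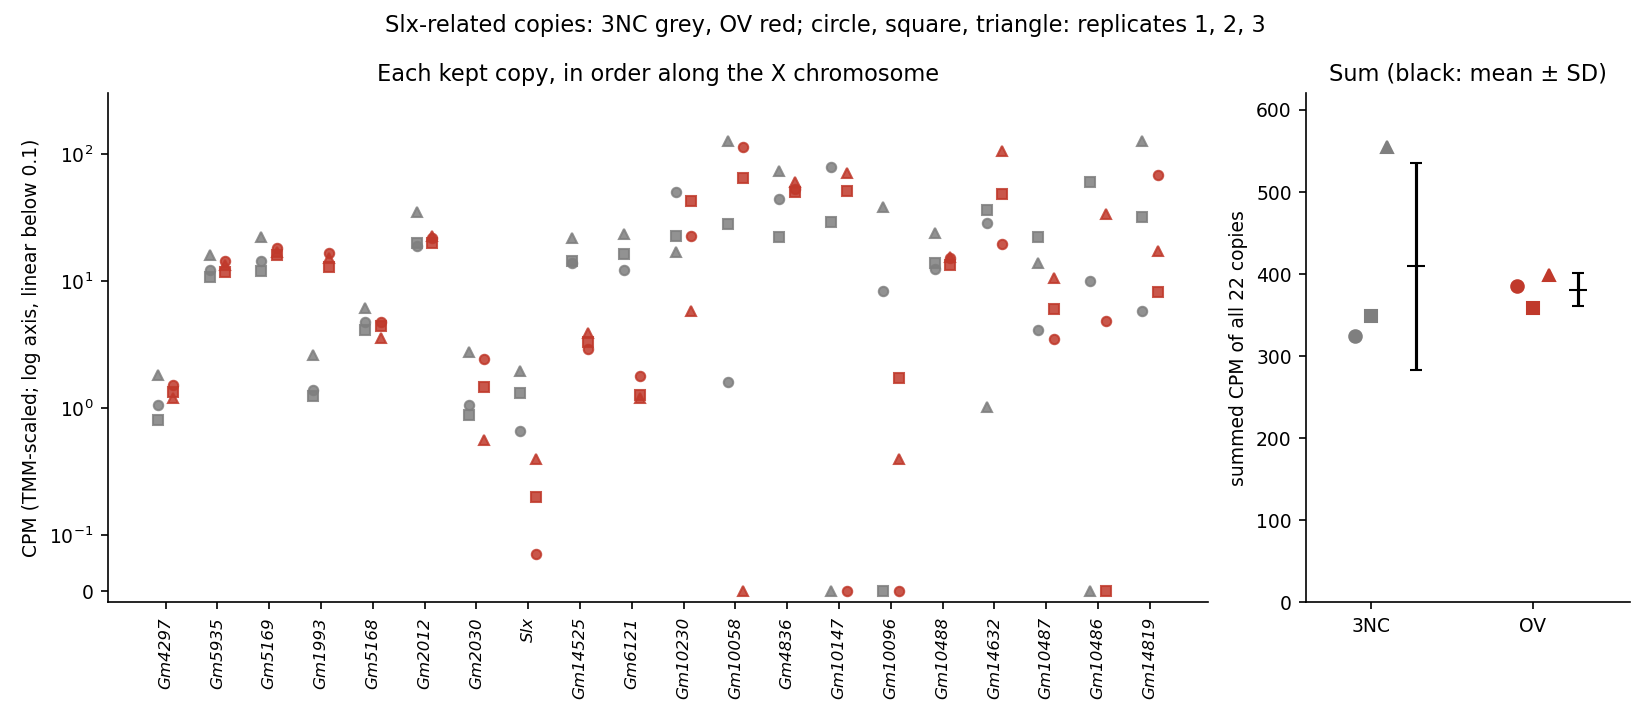
Left, CPM of each of the 20 kept Slx-related copies in the 3NC (grey) and OV (red) libraries on a log axis that is linear below 0.1, ordered along X; right, the summed CPM of all 22 copies with mean ± SD (n = 3). The groups separate for Gm1993, Gm14525, Gm6121 and Slx and overlap for the other 16, and the sums overlap at 359 to 398 against 325 to 555 CPM.

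Other multicopy genes of the sex chromosomes were read from a list of 29, of which 23 were kept and 6 were not. The 3 copies above were the called members, 1 higher and 2 lower. Slxl1, a further Slx-like gene, was at 18.8, 18.8 and 19.7 CPM in OV and 15.7, 17.2 and 24.6 in 3NC. Zfy1 and Zfy2, Y-linked zinc finger genes needed in meiosis and spermatids, had log2 fold changes of 0.07 and 0.12 (SE 0.20 and 0.17). In 7 members every OV library lay below every 3NC library, against 3.17% of all genes. In 1 member every OV library lay above, against 2.97%. Of the 23 kept members, 2, Slx among them, reached 10 reads in no OV library and so were kept through 3NC and had to be low in OV. The list was written with the called copies known and its members share sequence, so these counts are a description. Magea3, Magea4, Spin2c and Xlr5c were among the 7, with log2 fold changes of -1.02, -0.70, -0.87 and -0.38 (adjusted p 0.928 for each).

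Ccl28 (chromosome 13, 119623819 to 119654359) was the only called gene outside the Slx family. It was at 9.79, 14.5 and 13.3 CPM in OV and at 4.23, 5.36 and 4.45 in 3NC, without overlap. The log2 fold change was 1.42 (SE 0.19), or 2.67-fold, with an adjusted p of 0.0488 by edgeR. In 5NC it was at 3.31 to 4.30 CPM and in KD at 6.27 to 7.84. The call lay near the threshold, and of 21 other settings at the same threshold, 6 kept it and 15 did not, with adjusted p between 3.05e-06 and 0.309 and a log2 fold change between 0.94 and 1.57 in all. It was kept when OV replicate 1 was left out and lost, with adjusted p of 0.0812 to 0.309, when any other of the 6 libraries was.

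The genes next in order did not pass by edgeR, and their values are given as such. Ston1, which encodes the endocytic adaptor stonin 1, was at 19.5, 25.8 and 32.9 CPM in OV and 12.2, 9.91 and 11.9 in 3NC (log2 fold change 1.20, SE 0.19, adjusted p 0.105). Nmnat3, an enzyme of mitochondrial NAD synthesis, was at 79.3, 67.8 and 79.1 CPM against 39.8, 36.4 and 36.1 (1.01, SE 0.17, adjusted p 0.166). Ryr3, a ryanodine receptor that releases calcium from internal stores, was at 52.1, 50.2 and 18.9 CPM against 9.39, 8.97 and 14.2 (1.90, SE 0.33, adjusted p 0.166). The third OV library of Ryr3 lay nearer to the controls than to the other two. Alx1, a homeobox gene, was at 43.8 to 49.9 CPM in OV and 30.1 to 32.7 in 3NC (adjusted p 0.234), and 5NC was at 45.7 to 55.8.

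On the lower side, Itgae, the alpha E integrin of lymphocytes in epithelia, was at 45.7, 52.04 and 44.8 CPM in OV and 66.3, 67.5 and 66.6 in 3NC (log2 fold change -0.49, SE 0.08, adjusted p 0.105). Zfp286, a zinc finger gene, was at 6.57, 5.92 and 6.58 CPM against 12.6, 11.8 and 11.1 (-0.90, SE 0.14, adjusted p 0.105). Galc, the lysosomal galactosylceramidase, was at 38.7 to 43.3 CPM against 53.9 to 62.9 (adjusted p 0.162). Dlg2, a membrane scaffold gene, was at 10.7 to 12.3 CPM against 18.1 to 18.3 (adjusted p 0.331). For these 8 genes the OV and 3NC libraries did not overlap, although none passed by edgeR, and their choice by p in this comparison nearly fixes that (2.97% of all genes lay above and 3.17% below). DESeq2 called all 8, with adjusted p from 3.05e-06 for Itgae to 0.00723 for Dlg2. By edgeR, Ryr3 passed without OV replicate 3 (adjusted p 0.00612) and Ston1 without OV replicate 1 (0.0319). The 5NC libraries sided with 3NC for Zfp286, Itgae, Ryr3 and Nmnat3, and with OV for Alx1, Galc (42.9 to 45.2 CPM) and Dlg2 (12.2 to 14.6 CPM). Ston1 in 5NC lay between both, at 15.05 to 18.3 CPM.

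The same OV libraries were also set against 5NC, the control of their own vector. Over the same 15972 genes, 52 passed (0.326%), 34 higher and 18 lower. The 4 genes called against 3NC were among them with the same sign, which is 100% of the 4 and 7.69% of the 52. The count of 52 was unsteady: it was 318 with DESeq2, 4651 with limma voom and sample quality weights, 21 with a replicate block, and 9 to 40 with 1 library left out. It was 40, 10 and 9 without 5NC replicates 1, 2 and 3 in turn, and 22, 14 and 28 without OV replicates 1, 2 and 3. These comparisons share the OV libraries. Against 5NC, the log2 fold change was -3.35 for Gm6121, -2.14 for Gm14525, 3.45 for Gm1993 and 1.66 for Ccl28. Their adjusted p-values by edgeR were 0.000557, 0.00517, 0.000557 and 0.00517.

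The other 48 genes did not pass against 3NC. Over the 52, the median size of the log2 fold change was 1.17 against 5NC and 0.28 against 3NC. Over all genes it was 0.16 against 5NC and 0.13 against 3NC. In 34 of the 52 the change against 3NC was smaller than 0.5 in either direction. In 28 of the 52 the OV and 3NC libraries overlapped, and of all genes 2.97% had every OV library above 3NC and 3.17% below. An unadjusted p under 0.05 against 3NC was reached by 21, 9 higher and 12 lower, where 4.17% of all genes reached it. The 52 were chosen by their difference from 5NC, with the same OV libraries. Smaller changes against 3NC follow in part from that choice, so these counts are a description. The OV term cancels out of the difference between both comparisons, which leaves 5NC against 3NC. In that comparison 20 genes passed (0.125%), 4 higher and 16 lower in 5NC, and 14 of the 48 were among them. The filter on reads used the OV and 3NC libraries only, so genes with reads mainly in 5NC were left out. The split by direction, here and in OV against 5NC, is therefore partly set by the filter.

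**Figure D3:**
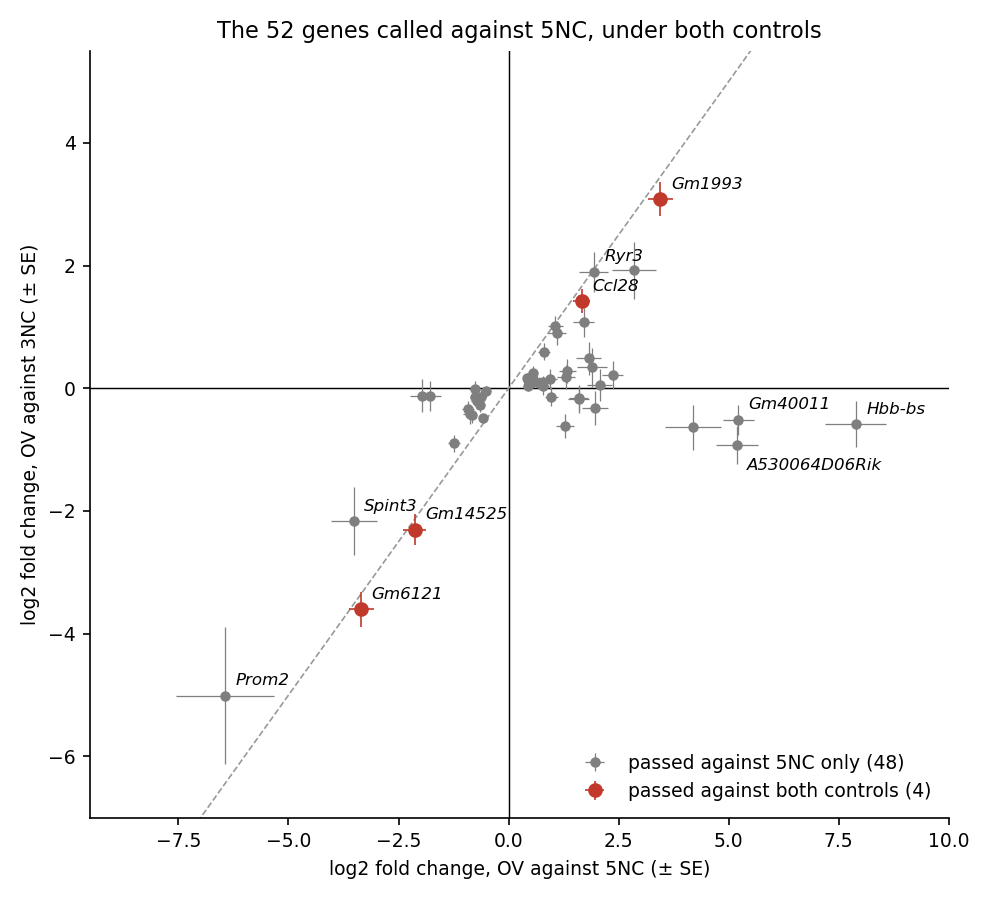
Log2 fold change (± SE) of the 52 genes called against 5NC, with OV against 5NC on the horizontal axis and against 3NC on the vertical axis; the dashed line marks equal values, and fitted values of genes with very few reads, such as Hbb-bs, depend on the prior count. The 4 genes that passed under both controls lie near the line, whereas 34 lie within 0.5 of 0 on the vertical axis.

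Some genes called against 5NC were far lower in 5NC than in either OV or 3NC. Gm40011 was at 6.31, 9.32 and 5.63 CPM in OV and 9.72, 9.53 and 11.1 in 3NC, but at 0.0624, 0.282 and 0.215 in 5NC. Its log2 fold change was 5.22 against 5NC (adjusted p 0.000138 by edgeR) and -0.51 against 3NC (adjusted p 0.928). Hbb-bs, an adult beta-globin gene, was at 4.40, 10.4 and 7.29 CPM in OV and 12.96, 14.1 and 6.004 in 3NC, while 2 of the 5NC libraries had no read and the other was at 0.0717. Beta-globin genes are near-identical copies, so their reads are uncertain as well. A530064D06Rik was at 1.86 to 3.22 CPM in OV, 4.45 to 5.89 in 3NC and 0 to 0.125 in 5NC, and its log2 fold change against 3NC was -0.92 (SE 0.30, adjusted p 0.928), with no overlap. Gtf2ird2, a gene of a transcription factor family, was at 14.7 to 25.7, 14.8 to 23.3 and 3.73 to 4.37 CPM.

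Genes high in 5NC showed the reverse. Capns2, a calpain small subunit gene, was at 0.713 to 1.25 CPM in OV, 1.06 to 1.28 in 3NC and 3.95 to 4.37 in 5NC. Tgm6, a transglutaminase gene, was at 1.19 to 1.45, 1.18 to 1.65 and 3.38 to 5.24 CPM. Neither passed against 3NC (adjusted p 0.959 and 0.949), and the OV and 3NC libraries overlapped for both. In contrast, Zfp286 at 13.6 to 15.9 CPM and Itgae at 70.2 to 73.8 CPM in 5NC lay on the same side of OV as in 3NC.

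In all, every OV library lay above each of the 6 libraries of 3NC and 5NC in 181 genes (1.13%) and below each in 214 (1.34%). By p against 3NC, the first of these after the genes above were Slx, Il3ra, Edar and Slc4a10. Il3ra, the alpha chain of the interleukin 3 receptor, had a log2 fold change of 0.91 against 3NC, and Slc4a10, a bicarbonate transporter, 1.88. Edar, a receptor of the tumour necrosis factor family, had -1.06. None of these passed by edgeR, with adjusted p from 0.463 to 0.517, while DESeq2 called Il3ra and Slc4a10 under both controls.

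Several of the kept epididymal genes had very low counts in OV, which the filter on reads partly fixes. The epididymis is the duct that receives sperm from the testis, and its epithelium secretes proteins such as Crisp1 onto them. Of 20 genes on the list, 10 were kept. The other 10, Lcn5, Lcn8 and Gpx5 among them, had at most 8 reads in any of the 6 libraries, 3NC included. In 7 of the kept genes, every OV library lay below every 3NC library, against 3.17% of all genes, and in 3, Cst8, Rnase10 and Defb21, the groups overlapped. None passed by edgeR in the fit of all libraries, with the smallest adjusted p at 0.541. DESeq2 called 3 of the 10, Crisp1, Spink8 and Prom2, all lower (largest adjusted p 0.0438), where it called 28 of all 15972 genes. By edgeR, Crisp1 was called in a fit of only the 6 libraries compared (adjusted p 0.00615). Of the 10, 5 reached 10 reads in no OV library and so were kept because of their 3NC counts, and a gene kept in that way had to be low in OV. Crisp1 and Prom2 were among these 5, so their calls are partly fixed by the filter. Spink8 and Ces5a reached 10 reads in every OV library and also lay below 3NC.

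Crisp1 was at 0.197, 0.133 and 0.0793 CPM in OV, from 3, 2 and 1 reads, and at 32.5, 61.7 and 26.2 in 3NC, from 491, 990 and 389 reads (adjusted p 0.605). Spink8, a protease inhibitor gene, was at 0.723, 0.865 and 0.793 CPM against 5.82, 10.3 and 3.71. Ces5a, a carboxylesterase secreted in the epididymis, was at 1.12, 1.597 and 1.03 CPM against 5.42, 8.35 and 5.26. Adam7 had 3 reads over the 3 libraries of OV and 234 in 3NC, Prom2 4 and 152, Rnase9 2 and 78, and Spint3 7 and 35. Cst8, which germ cells of the testis express as well, was at 141 to 162 CPM in OV and 132 to 172 in 3NC.

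The same genes were also scarce in part of KD. Crisp1 was at 13.2, 0.0665 and 0.608 CPM there, and at 9.86, 240 and 98.5 in 5NC, so it also varied among the 5NC libraries. In KD replicates 2 and 3 each of the 7 genes lay below its lowest 3NC library. Whether pieces of epididymis were taken with some testes was not tested.

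**Figure D4:**
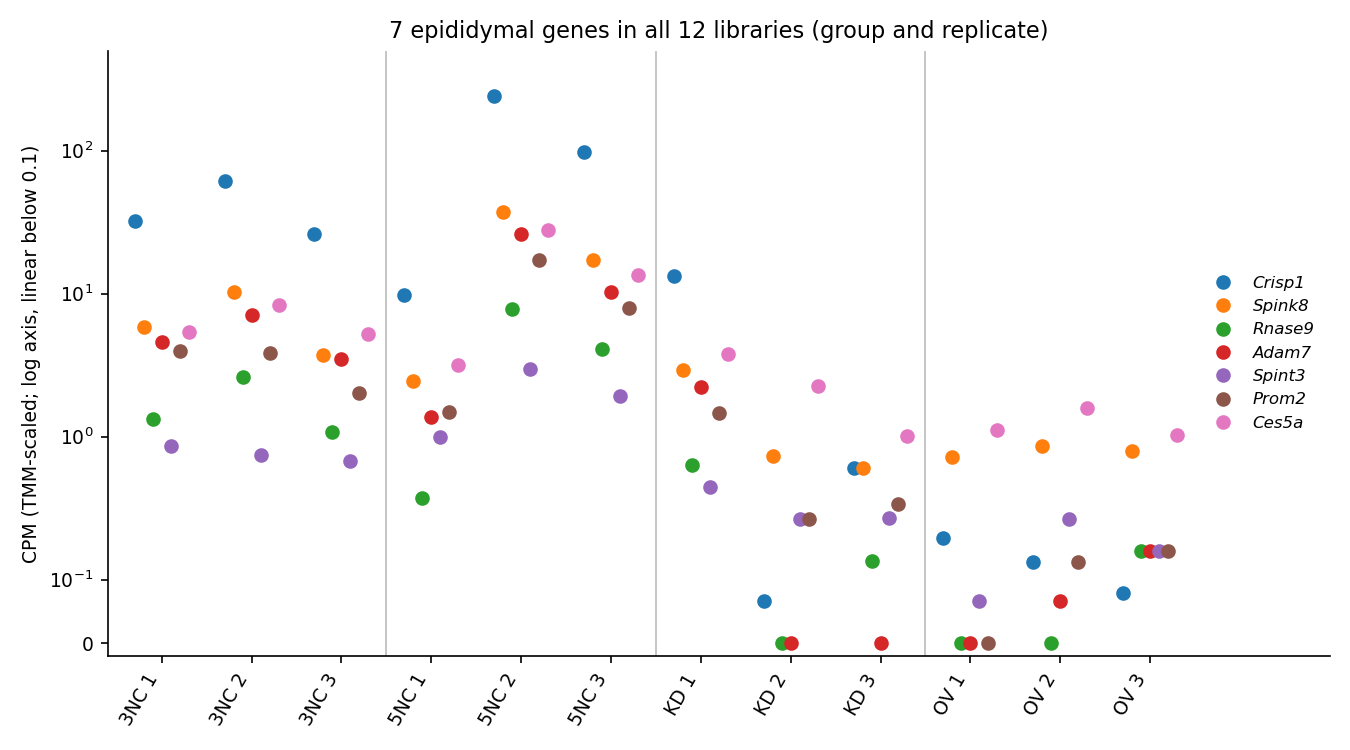
CPM of the 7 epididymal genes that lay lower in every OV library than in any 3NC library, for all 12 libraries in order of group and replicate, on a log axis that is linear below 0.1; points are offset sideways for legibility. Crisp1 stands at 26.2 to 61.7 CPM in 3NC and at 0.0793 to 0.197 in OV, and at 0.0665 and 0.608 in KD replicates 2 and 3. Crisp1, Rnase9, Adam7, Spint3 and Prom2 were kept through 3NC and had to be low in OV.

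The immune lists had negative medians that lay above 0 once 3NC replicate 2 was left out. The interferon response list had 20 of 24 genes kept, all with a negative log2 fold change and a median of -2.72, and 10 at an unadjusted p under 0.05, which 4.17% of all genes reached. None passed, and the groups overlapped for all 20. Each of the 20 was highest in 3NC replicate 2. Gbp2, an interferon-induced GTPase, was at 2.30, 1.86 and 3.25 CPM in OV and 3.11, 156 and 2.09 in 3NC. Summed over the list, the level was 81.6 to 107 CPM in OV and 80.2, 1254 and 66.9 in 3NC. Without 3NC replicate 2 the median was 0.28, on the other side of 0.

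Antigen presentation genes gave the same picture. All 20 were kept, had a negative change, with a median of -1.79, and were highest in 3NC replicate 2. Cd74, the invariant chain of class II molecules, was at 40.5, 26.2 and 20.8 CPM in OV and 29.8, 329 and 10.9 in 3NC. In 2 of the 20, Nlrc5 and H2-Q7, all OV libraries lay below all 3NC libraries, against 3.17% of all genes. Without 3NC replicate 2 the median was 0.01. Macrophage genes had a median of -0.93 over 18 kept genes and 0.26 without that library, and lymphocyte genes -0.70 over 9 kept of 22 and 0.03 without it. Aif1, on the macrophage list, was at 294.1 to 308 CPM in OV and 299.6 to 340 in 3NC.

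Germ cell lists lay close to the median of all genes, and no member passed in any of them. The median log2 fold change was -0.02 for 17 kept spermatogonial genes, 0.04 for 30 genes of synapsis and recombination, 0.07 for 20 genes of the piRNA pathway and 0.03 for 25 genes of round spermatids. It was 0.05 for 24 acrosome genes, 0.04 for 24 genes of elongating spermatids and 0.05 for 35 flagellum genes. Without 3NC replicate 2 these 7 medians lay between -0.10 and -0.0024. Over all 15972 genes the median was -0.02, with quartiles of -0.16 and 0.10. Ddx4, the germ cell RNA helicase, was at 646, 635 and 785 CPM in OV and 631, 634 and 778 in 3NC. Prm1, which packs sperm DNA, was at 2844 to 3138 CPM in OV and 2688 to 3500.4 in 3NC. Dnah8, a dynein of the sperm axoneme, was at 3693, 1911 and 2905 CPM against 2120.4, 2270 and 1274 (log2 fold change 0.59, SE 0.35).

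No gene of the lists for somatic cells of the testis passed, and their medians ranged more widely. Sertoli cell genes, from the cells that nurse germ cells, had a median of 0.01 over 25. Clu was at 514 to 708 CPM in OV and 522 to 703 in 3NC. Peritubular myoid genes had a median of -0.04 over 11, and Acta2, their smooth muscle actin, was at 33.6 to 39.1 CPM against 28.5 to 45.1. Endothelial genes had -0.18 over 12 and matrix genes -0.18 over 22. Col1a2, a collagen gene, reached 264 CPM in 3NC replicate 2, with 39.7 to 103 in the other 5 libraries. Without that library the median was 0.06 for peritubular myoid, 0.12 for endothelial and 0.19 for matrix genes.

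Leydig cells make testosterone from cholesterol. Of 20 genes of steroidogenesis none passed, and the median was 0.13, or -0.06 without 3NC replicate 3. That library was low for the list, with a summed level of 1327 CPM against 2507 and 2301 in the other 3NC libraries and 1827 to 2460.4 in OV. In 3 of them, Hsd3b1, Cyp21a1 and Srd5a1, every OV library lay above every 3NC library, against 2.97% of all genes, with log2 fold changes of 0.44, 0.57 and 0.51 (adjusted p 0.928 for each). Hsd3b1, which converts pregnenolone to progesterone, was at 130, 113 and 168 CPM in OV and 94.7, 104 and 104 in 3NC. Cyp17a1, which makes androgens, was at 384, 650 and 732 CPM against 747, 718 and 309, and these overlapped. The kallikreins of Leydig cells were negative in 11 of 12 kept genes, with a median of -0.40. Summed over that list, the level was 105 to 146 CPM in OV and 229, 194 and 116 in 3NC. The third 3NC library thus lay within the OV range. Klk1b27 was at 6.11, 13.51 and 23.6 CPM in OV and 42.6, 42.2 and 4.12 in 3NC, so that the third 3NC library was the lowest of the 6. Kallikrein genes are also close copies. Cholesterol synthesis genes had a median of -0.02 over 20.

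The study stained or blotted a set of proteins, and 18 of 19 of their genes were kept. None passed, and the median was -0.02. The proteins were measured in testes of the injected males, in F1 testes or in a spermatogonial cell line. RNA is thus set beside protein that is partly from other samples. In F1 testes the paper reports significantly less staining of DDX4, SYCP3 and the transition protein TP1 with overexpression than in its control. Sycp3, of the synaptonemal complex, was at 194 to 248 CPM in OV and 199.6 to 236 in 3NC. Tnp1, a transition protein of spermatids, was at 1570.1 to 1887 CPM against 1587 to 2047. Odf1, of the outer dense fibres, was at 983 to 1421 CPM against 851 to 1289. Of 27 kept junction genes of 32 none passed either, with a median of -0.03. Tjp1, which encodes the tight junction protein ZO-1, was at 116 to 143 CPM against 115 to 129. Nectin3 was at 543 to 701 CPM against 550 to 721. Purb was at 76.8, 79.1 and 92.7 CPM in OV and 77.0, 98.5 and 93.7 in 3NC, which overlapped (exact permutation p = 0.4).

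**Figure D5:**
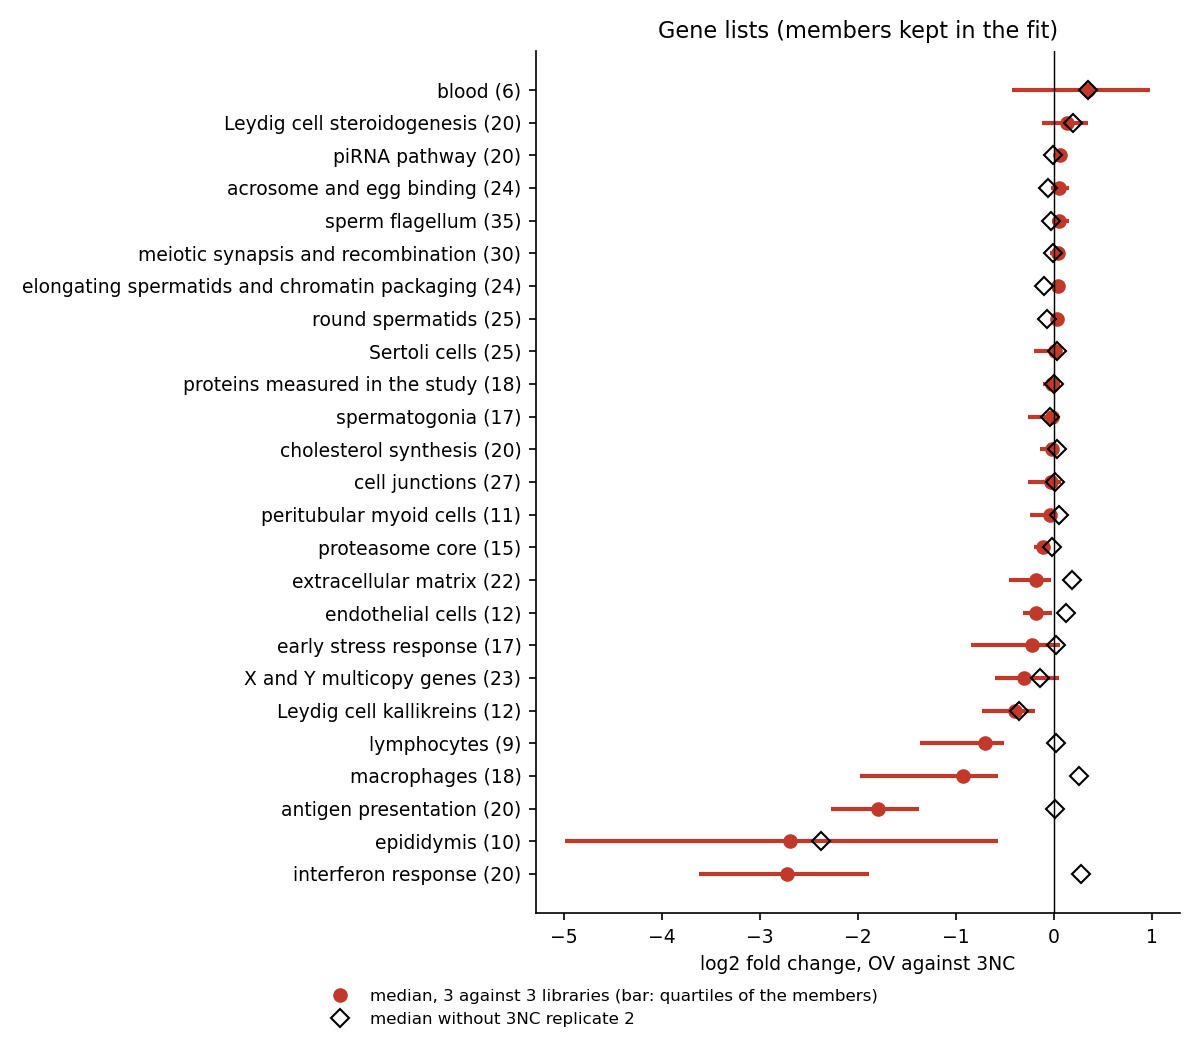
Median log2 fold change of OV against 3NC for the 25 gene lists, with the number of kept members in brackets; red bars give the quartiles of the members and open diamonds the median without 3NC replicate 2. Interferon response moves from -2.72 to 0.28 without that library, and epididymis from -2.69 to -2.37, where 5 of the 10 genes were kept through 3NC and had to be low in OV.

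The last lists held few kept or shifted members. Globin and other blood genes had a median of 0.35 over 6 kept of 10. Hba-a1, an alpha-globin gene, was at 77.1, 39.1 and 19.2 CPM in OV and 45.1, 26.5 and 14.1 in 3NC. Early stress genes had a median of -0.22 over 17 and 0.02 without 3NC replicate 2. Core proteasome genes had -0.11 over 15. Across the 25 lists 480 of 530 entries were kept, which are 448 distinct genes, and the X and Y multicopy list was the 1 list with a gene called by edgeR in the fit of all libraries.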

How the data were processed

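Testis RNA was sequenced by the authors on the HiSeq 2500, after oligo(dT) enrichment per the methods, whereas the labels name total RNA. Reads were aligned with SOAPaligner 2.20, and the build is mm10. As deposited, each gene has estimated counts (12.0% of genes with fractions) and RPKM values, both made by the authors. Per the methods, the aligner's option for repeat hits was set to 2, which reports every hit of a read, and how such hits were then counted is not stated there. Another 18 columns belong to samples of other groups and stayed out. Gene IDs of 20630 genes (99.2%) matched RefSeq.

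Estimated counts were rounded, 4816 genes under the filter were removed, and all 12 libraries entered 1 edgeR 4.0.16 fit (R 4.3.3, TMM, glmQLFit defaults, 1 coefficient per group, 8 residual degrees of freedom, prior 3.46, biological coefficient of variation 21.9%). Replicates of a group differed by more than sampling noise. The members and gene lists were chosen with earlier results of these data known. Named genes were 6 higher and 6 lower against 3NC by p, 6 higher and 6 lower among the calls against 5NC, those called in both, up to 4 members per list by mean CPM, called list members, and Purb. Ptprc, Slx, the unsteady and steady Slx copies, Magea3, Magea4, Spin2c, Xlr5c, Il3ra, Edar, Slc4a10, Adam7, Prom2, Rnase9, Spint3, Rnase10, Defb21, Lcn5, Lcn8, Gpx5, Nlrc5, H2-Q7, Hsd3b1, Cyp21a1, Srd5a1 and Sycp3 were picked outside that rule with their values known. Counts of 15972 genes were simulated for this comparison, with 67, 67 and 66 genes changed 1.5-fold, 2-fold and 4-fold. The fit recovered 14.9%, 55.2% and 92.4% of these in turn, with 6 calls among unchanged genes. With that many changed genes the Benjamini-Hochberg adjustment is easier to pass than in the data, where 4 genes passed. The recovered shares may therefore be too high for these data.

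The alternatives were other scalings and filters, DESeq2 1.42.0, limma 3.58.1, other edgeR options, RPKM values with pseudocounts of 0.1 and 1, fewer libraries, a replicate block, the study's thresholds, and a summed Slx family.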

Additional observations from a re-analysis of the deposited data

Results flagged for a closer look

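In the KD libraries, which are on neither side of any comparison above and add only to the shared estimate of the spread, 2 of the 4 called genes lay above every control library. Gm1993 was at 4.06 CPM in the lowest KD library and 6.08 in the highest, whereas the highest library of 3NC and 5NC was at 2.63. Ccl28 was at 6.27 CPM in the lowest KD library and 7.84 in the highest, whereas the highest control library was at 5.36. All KD libraries lay above all 6 control libraries in 425 of 15972 genes (2.66%). Both genes were called with these same control libraries low, which lowers the level that KD had to exceed. The share of 2.66% is over genes not chosen in that way, so the KD values are a description. In both genes the OV libraries lay higher still, from 12.98 CPM for Gm1993 and from 9.79 CPM for Ccl28.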

How the results depend on the processing

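Gm6121 and Gm1993 passed with the same sign in each of the 20 alternatives that kept them as separate genes and the threshold at 0.05, and Gm14525 in 18 of 20. Against 3NC, 1 gene was higher rather than 2 under RLE size factors, total counts without scaling, filterByExpr, voom with sample quality weights, both RPKM fits, a fit of only the 6 libraries, the replicate block, and without 3NC replicate 2 and KD replicate 1 (there 4 were lower). DESeq2 called 28 (13 higher, 15 lower), 318 against 5NC, 161 for 5NC against 3NC and 21 in both. At the study's thresholds (adjusted p of 0.001 and log2 fold change of 1) Gm6121 passed and Gm1993, Gm14525 and Ccl28 did not, so 1 gene passed (0 higher, 1 lower), 5 against 5NC, 3 for 5NC against 3NC and 1 in both. With the Slx copies summed, chosen after the data were examined, 0 genes passed, 0 higher, 0 lower and 0 in both, and 663 had an unadjusted p under 0.05. That setting has no separate rows for the called copies, so it could not call them.

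Calls against 5NC were 4651 with voom weights, 85 with log2(RPKM + 0.1), 108 in the 6 libraries, 166 without the 2 libraries high in Ptprc and 21 with the replicate block. Calls for 5NC against 3NC were 36 without scaling, 82 with voom weights, 31 with each RPKM fit, 7 in 6 libraries, 52 without the 2 libraries and 5 with the replicate block. The causes were not tested. Replicate numbers did not pair the libraries: deviations of OV and 3NC libraries with the same number correlated at 0.15, -0.11 and 0.02.

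Leaving out 1 library gave 2 to 7 calls against 3NC (1 to 5 higher, 1 to 3 lower), 9 to 40 against 5NC and 3 to 35 for 5NC against 3NC. Calls in both were 2 to 5 with 1 OV library left out, and were not counted with a control library left out. Capns2, not called, changed sign with voom weights (0.019) and without OV replicate 3 (0.083), over a range of -0.28 to 0.083, and Tgm6 without 3NC replicate 1 (0.026), over -0.23 to 0.026.

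In the simulated counts, changes of 1.5-fold were mostly missed, with 14.9% recovered. Recovery in the data may be lower, for the reason given with the simulation.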
